A study of Danio rerio with 10 samples.

Results

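The 10 genes described here were 8 transcription factor genes of the heart (*gata4*, *gata5*, *gata6*, *nkx2.5*, *hand2*, *tbx5a*, *tbx20* and *mef2ca*) and 2 natriuretic peptide genes (*nppa* and *nppb*). They were found by their symbols in the gene tables of the series, which held 25029 genes in all, 23511 in the ventricle table and 22202 in the fin table. All 10 were listed in the ventricle table and 5 of them in the fin table. Adult zebrafish mutant for *il11ra*, which encodes the Interleukin-11 receptor alpha, were compared with fish that the paper calls wild-type siblings. No other allele or agent is named for either genotype. The mutant allele is a germline loss-of-function allele made with CRISPR-Cas9, so no cell type was targeted alone. Ventricles were taken 96 hours post cryoinjury (hpci), with 2 libraries per genotype and 2 pooled ventricles per library. Caudal fin tissue was taken 24 hours post amputation (hpa), with 3 libraries per genotype and 1 fin per library. All animals of a tissue were injured, so both genotypes are compared after injury only.

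In the vertebrate heart, Gata, Nkx2.5, Hand, T-box and Mef2 proteins bind DNA next to each other in the control regions of contractile and natriuretic peptide genes, and several of them bind each other. They specify heart muscle in the embryo, and some are used again when zebrafish cardiomyocytes at a wound border divide. The natriuretic peptides are hormones that cardiomyocytes secrete, more so under stretch, and their transcripts are widely used as signs of chamber identity and of cardiac stress.

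The values, called normalized counts here, are read counts per gene after the authors' division by a library's size factor and rounding to whole numbers. The libraries held an estimated 12862399 to 14292521 reads on genes in ventricles and 2963659 to 4699029 in fins. The mutated gene *il11ra* itself stood at 107 and 189 normalized counts in the wild-type ventricles and at 38 and 23 in the mutant ventricles, and at 57 to 80 against 3 to 7 in fins. In ventricles 16 of 18 cardiomyocyte marker symbols were listed, and their summed normalized counts were 1556840 and 1307175 in wild types against 872518 and 1623301 in mutants. All 16 tested rows of this marker list were lowest in the first mutant ventricle library, which therefore stood apart from the second in its heart muscle transcripts.

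None of the 10 genes passed the test between mutant and wild-type ventricles. The count at an adjusted p under 0.05 (limma, Benjamini-Hochberg over 17411 tested genes) was 0 of 10, beside 0% of all genes tested. The mutated gene *il11ra* missed this threshold as well, with a log2 fold change of −2.23 and an adjusted p of 0.306 (limma, Benjamini-Hochberg). At an unadjusted p under 0.05 there were 2 of 10, *hand2* and *nppb*, beside 6.74% of all genes. Leaving out 1 library changed which genes these were. They were *hand2* and *tbx20* without the first mutant library, *hand2* and *tbx5a* without the second, and 0 genes without either wild type. The unadjusted p of *nppb* was above 0.05 in each of these fits. Without overlap between genotypes, 3 genes (*hand2*, *gata5* and *tbx20*) were higher in both mutant libraries, beside 18.2% of all genes, and 2 (*nppa* and *nppb*) were lower in both, beside 17.1%. The other 5 overlapped. The median log2 fold change, mutant over wild type, was 0.01 over the 10 genes and 0.08 over the 8 transcription factors, beside 0.01 over all tested genes. With 2 libraries against 2, an exact permutation test of a single gene cannot go below p = 0.333. The paper calls the wild types siblings of the mutants, but nothing in the labels says how the pools relate to each other. The p-values therefore measure the spread between these libraries. In these bulk samples, fewer cells of a type and less RNA per cell cannot be told apart.

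*hand2* encodes a basic helix-loop-helix factor needed for the growth of the heart muscle and for the outflow tract and epicardium. Its span in GRCz11, the build of all coordinates here, is 38193147 to 38195012 on chromosome 1, minus strand. The wild-type ventricles held 1389 and 1286 normalized counts of *hand2*, and the mutant ventricles held 2295 and 2286. Both mutant libraries were nearly equal in normalized counts and both stood well above both wild types. How closely the mutants agree depends on the scaling. Divided by the cardiomyocyte level, as described below, the mutants held 3432 and 1892 and the wild types 1192 and 1211. The means of the normalized counts were 1338 ± 72.8 (SD, n = 2) in wild types and 2291 ± 6.36 (SD, n = 2) in mutants, a ratio of 1.71. The log2 fold change was 0.78 with a standard error of 0.17 and a 95% interval from 0.35 to 1.20, and its adjusted p was 0.439 (limma, Benjamini-Hochberg). Ordered by unadjusted p, *hand2* stood at place 167 among the 17411 tested genes. Within 25000 bases of *hand2*, *galnt7*, a glycosyltransferase gene, was the only neighbour with more than 2 normalized counts. It held 383 and 409 in wild types and 448 and 410 in mutants, higher without overlap but by a narrow margin. Its ratio of wild type to mutant was 0.92, beside 0.58 for *hand2*. The other neighbours held too few counts to show a difference.

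**Figure D1:**
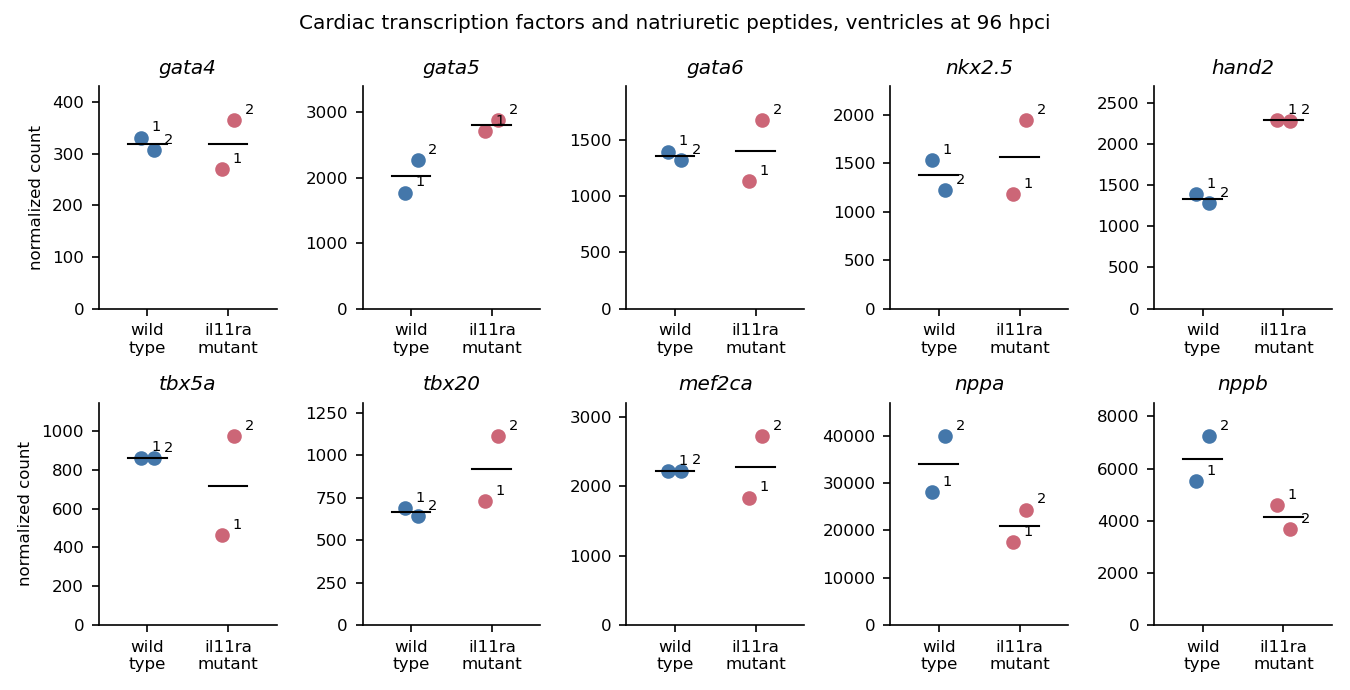
Normalized counts (vertical axes, each from 0) of the 10 genes in the 4 ventricle libraries at 96 hpci, with wild type in blue, il11ra mutant in red, the replicate number beside each point and the mean of the 2 libraries as a bar. The 2 mutant points of hand2 lie together at 2295 and 2286 above both wild types, while those of tbx5a lie apart at 465 and 972 on either side of the wild types.

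Of the 3 Gata genes among the 10, which encode zinc finger proteins that bind GATA motifs, *gata5* was the one without overlap between genotypes. *gata5*, which in zebrafish is required for heart muscle and endoderm, lies on the plus strand of chromosome 23 from 7379728 to 7391028. It held 1774 and 2271 normalized counts in wild types and 2717 and 2886 in mutants. Both mutant libraries were above both wild types, but the wild types differed from each other by more than the gap to the lower mutant. For *gata5* the log2 fold change was 0.48 with a standard error of 0.21 and a 95% interval from −0.02 to 0.98 (limma, Benjamini-Hochberg adjusted p = 0.746). It was 0.30 without the first wild-type library.

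*gata4*, whose regulatory sequence is used to mark dividing cardiomyocytes after injury in zebrafish, is on the minus strand of chromosome 20 from 52952116 to 52967878. Its normalized counts were 331 and 306 in wild types and 270 and 365 in mutants, so the mutant libraries enclosed the wild types. *gata6*, a paralog that acts with Gata5 in heart formation in zebrafish, is on the plus strand of chromosome 2 from 4207209 to 4217887. It held 1395 and 1321 normalized counts in wild types and 1132 and 1676 in mutants, again one mutant library below and one above. The group means of *gata4* were 318.5 and 317.5 and those of *gata6* were 1358 and 1404. The 95% intervals of their log2 fold changes ran from −0.55 to 0.51 for *gata4* and from −0.56 to 0.60 for *gata6*. A difference inside these intervals is not excluded by these libraries.

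Of the T-box factors, *tbx20* did not overlap between genotypes and *tbx5a* did. *tbx20*, a factor required for the growth and function of chamber muscle in mice, lies on the minus strand of chromosome 16 from 42509011 to 42523744. It held 690 and 643 normalized counts in wild types and 732 and 1112 in mutants. The genotypes did not overlap, but the first mutant library exceeded the higher wild type only slightly, and without the second mutant library the log2 fold change went from 0.44 to 0.14. Its standard error was 0.24 and its adjusted p was 0.804 (limma, Benjamini-Hochberg).

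*tbx5a*, a factor that in zebrafish patterns the heart and starts the pectoral fin buds, lies on the minus strand of chromosome 5 from 72264192 to 72289648. Its wild-type libraries held 863 and 862 normalized counts and its mutant libraries 465 and 972. The wild types agreed almost exactly, while the mutants lay on both sides of them. For *tbx5a* the log2 fold change was −0.36 with a standard error of 0.35, and it was 0.17 without the first mutant library and −0.89 without the second. Its direction therefore rested on the first mutant library alone.

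*nkx2.5*, the homeobox factor of the cardiac lineage that in zebrafish keeps ventricular identity, is on the plus strand of chromosome 14 from 24241241 to 24244034. It held 1536 and 1222 normalized counts in wild types and 1182 and 1950 in mutants. *mef2ca*, a MADS-box factor that activates muscle genes, is on the minus strand of chromosome 10 from 43544814 to 43655449. It held 2221 and 2228 normalized counts in wild types and 1839 and 2721 in mutants. In both genes the first mutant library was the lowest of the 4 and the second the highest. Their log2 fold changes were 0.15 with a standard error of 0.28 for *nkx2.5* and 0.01 with a standard error of 0.24 for *mef2ca*. Leaving out the second mutant library turned both, to −0.21 and −0.27.

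The same order of libraries, with the first mutant lowest and the second highest, held for all 5 genes whose genotypes overlapped (*gata4*, *gata6*, *nkx2.5*, *tbx5a* and *mef2ca*). With *nppa*, 6 of the 10 genes were lowest in the first mutant library, where 30.3% of all tested genes had their lowest value. In all, 8 of 10 were higher in the second mutant library than in the first, and *hand2* and *nppb* were the exceptions. The shares of all tested genes with these orders of the mutant libraries were not computed, so the counts are not read as particular to these genes.

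**Figure D2:**
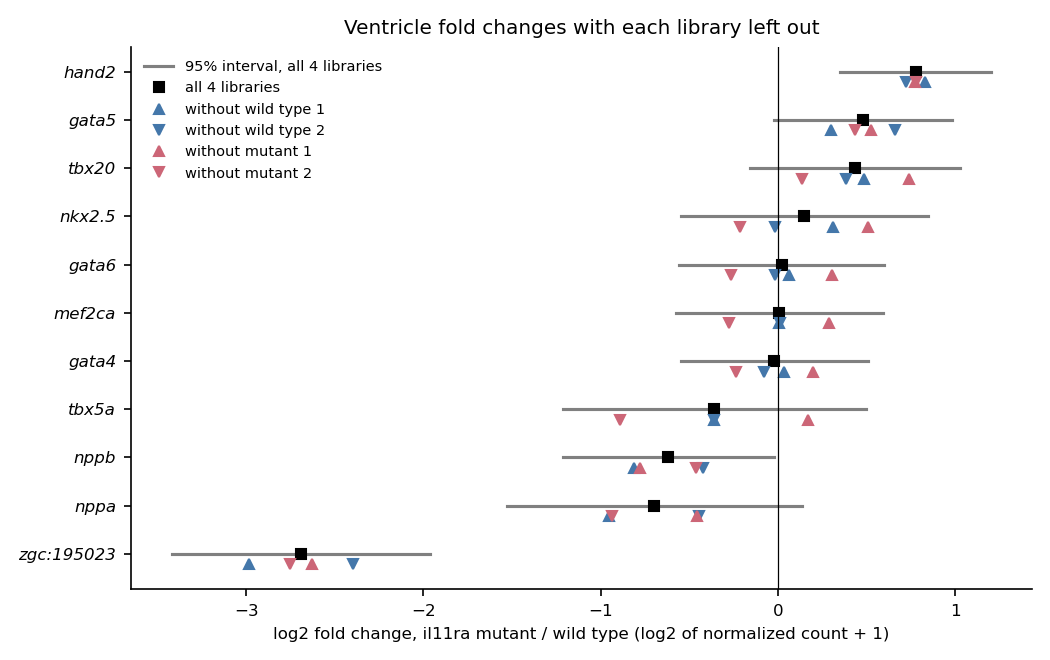
Log2 fold change in ventricles (horizontal axis, mutant over wild type, on log2 of the normalized count plus 1) with all 4 libraries (black squares), its 95% interval from limma (grey lines), and with each library left out (blue triangles for wild types, red for mutants). hand2 stayed between 0.72 and 0.83 and nppa between −0.95 and −0.44, while tbx5a ran from −0.89 to 0.17.

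The natriuretic peptide genes were lower in both mutant ventricle libraries. *nppa*, the gene of atrial natriuretic peptide, is on the plus strand of chromosome 8 from 48613040 to 48617664. It held 28089 and 39888 normalized counts in wild types and 17485 and 24384 in mutants. The genotypes did not overlap, although the wild types differed from each other by more than the gap between the genotypes. The means were 33989 ± 8343 and 20935 ± 4878 (SD, n = 2 each), a ratio of wild type to mutant of 1.62. The log2 fold change of *nppa* was −0.70 with a standard error of 0.34 and a 95% interval from −1.53 to 0.14, and its adjusted p was 0.782 (limma, Benjamini-Hochberg). It was −0.44 without the second wild-type library and −0.46 without the first mutant library.

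*nppb*, the gene of brain natriuretic peptide, ends 2495 bases upstream of *nppa* on the same strand and runs from 48609521 to 48610544. Its normalized counts were 5512 and 7229 in wild types and 4592 and 3682 in mutants, again without overlap. The means were 6371 ± 1214 and 4137 ± 643 (SD, n = 2 each), a ratio of wild type to mutant of 1.54. For *nppb* the log2 fold change was −0.62 with a standard error of 0.24 and a 95% interval from −1.21 to −0.02 (limma, unadjusted p = 0.0439, Benjamini-Hochberg adjusted p = 0.719). Of all tested genes, 9.48% had a log2 fold change of −0.5 or lower, as both peptide genes did. The peptides did not move together from library to library within the mutants. The ratio of *nppa* to *nppb* normalized counts was 5.10 and 5.52 in wild types and 3.81 and 6.62 in mutants, so the mutant ratios enclosed those of the wild types.

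A further gene of this cluster, chosen after its values were seen, differed more. The table lists it as *zgc:195023*, which the RefSeq gene table (GRCz12tu) gives as another name of *nppal*, and it lies 5169 bases upstream of *nppb* on the same strand, from 48603398 to 48604351. It held 120 and 181 normalized counts in wild types and 21 and 23 in mutants. Both mutants stood far below both wild types, at 14.0% and 15.3% of the wild-type mean, and the ratio of the means was 6.84. Its log2 fold change was −2.69 with a standard error of 0.30, and its adjusted p was 0.158 (limma, Benjamini-Hochberg), so it did not pass the threshold. By unadjusted p it stood at place 11 of 17411. On the other side of the cluster *clcn6*, a chloride transporter gene 11830 bases from *nppa* on the minus strand, held 100 and 95 in wild types and 65 and 95 in mutants. The genotypes of *clcn6* met at 95.

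**Figure D3:**
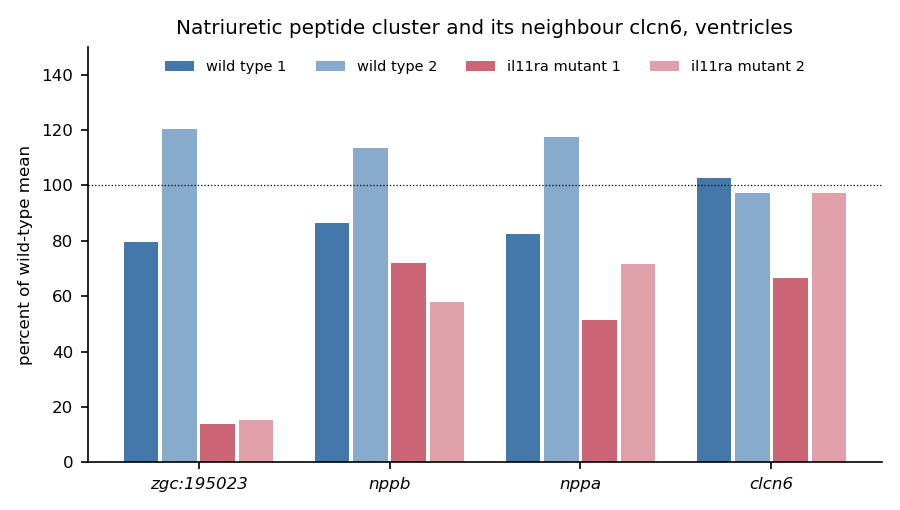
Percent of the wild-type mean normalized count (vertical axis, from 0) in each of the 4 ventricle libraries for the 3 genes of the natriuretic peptide cluster and for clcn6 beside it, one bar per library. zgc:195023 stood at 14.0% and 15.3% in the mutants, nppb at 72.1% and 57.8%, nppa at 51.4% and 71.7%, and clcn6 at 66.7% and 97.4%.

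Markers of cell types moved with several of these genes. Set to the geometric mean of the 4 ventricle libraries, the cardiomyocyte list stood at 1.17 and 1.06 in wild types and at 0.67 and 1.21 in mutants. *tbx5a* followed the same order, with 1.13 and 1.13 in wild types and 0.61 and 1.28 in mutants. *nppa* was lowest where the cardiomyocyte list was lowest. In the second mutant library, where the list was highest, *nppa* was still below both wild types, at 0.93 against 1.07 and 1.52. The median log2 fold change of the 16 tested cardiomyocyte rows was −0.33, beside 0.01 over all genes, and 0 passed the test.

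Dividing each library by its cardiomyocyte level moved the median log2 fold change over all genes to 0.32. On that scale the log2 fold changes were −0.39 for *nppa*, −0.31 for *nppb*, −0.05 for *tbx5a*, 1.08 for *hand2* and −2.39 for *zgc:195023*. The peptide genes then overlapped between genotypes, with 24104 and 37549 in wild types and 26147 and 20186 in mutants for *nppa*, and 4730 and 6805 against 6867 and 3048 for *nppb*. *zgc:195023* still did not overlap, at 103 and 170 against 31.4 and 19.0. Of the 8 transcription factors, 7 (all but *tbx5a*) were higher in both mutants on this scale, beside 21% of all genes, and 0 of the 10 genes were lower in both, beside 4.54%. The log2 fold changes of *gata4* (0.29), *gata6* (0.33) and *mef2ca* (0.32) were close to the median over all genes, 0.32. On this scale 0 of the 10 genes passed the test, and *hand2* alone had an unadjusted p under 0.05 (limma). The part that the amount of heart muscle RNA had in the peptide differences was not tested.

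Markers of outflow tract smooth muscle were higher in the mutant libraries, as *hand2* was. All 7 were measured, their summed normalized counts were 6315 and 6125 in wild types and 10255 and 11533 in mutants, and 5 were higher without overlap while *tagln* was lower (beside 18.2% and 17.1% of all genes). *acta2*, the smooth muscle actin gene that myofibroblasts also express, held 1642 and 1302 against 3014 and 3108, and *elnb*, an elastin gene, held 431 and 184 against 814 and 2854. None of the 7 passed the test in ventricles (0), and their median log2 fold change was 0.94. Set to the mean of the 4 libraries, the list stood at 0.76 and 0.69 in wild types and 1.26 and 1.53 in mutants, and *hand2* at 0.79 and 0.74 against 1.31 and 1.31. These markers are not specific to the outflow tract, and the paper counts *acta2* and *mylka* among mesenchymal marker genes. By quantitative PCR on dissected injured areas at the same time after cryoinjury, it reports higher *acta2*, *mylka* and *elnb* in *il11ra* mutants. At a later time it reports more myofibroblasts, stained for smooth muscle actin, in mutant hearts. Whether the outflow tract was dissected off equally is not stated in the sources used here. The parts of outflow tract tissue and of myofibroblasts in the marker and *hand2* values were not tested.

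Blood markers were also higher in both mutants, as *hand2* was. They summed to 77673 and 73393 in wild types and 99112 and 86850 in mutants. Of 7 rows, most of them globin genes, 4 were higher and 0 lower without overlap (beside 18.2% and 17.1% of all genes). Their part in the *hand2* values was not tested. The 6 epicardial markers summed to 11093 and 11656 in wild types and 8097 and 8109 in mutants. *podxl* and *aldh1a2*, with means of 5190 and 3543 over the ventricle libraries, weighed most in these sums. Without overlap 2 of the 6 were higher, as *hand2* was, and 3 lower, beside the same shares of all genes. The higher were *tcf21* and *tbx18* (log2 fold changes 0.81 and 0.56), the lower *wt1b*, *aldh1a2* and *wt1a* (−1.15, −1.04 and −0.53). By immunostaining at an earlier time, the paper reports less Aldh1a2 in mutant endocardium and comparable levels in epicardium. The 10 endocardial and endothelial markers summed to 16148 and 18029 against 16069 and 15356. *cdh5*, with a mean of 4727 over the ventricle libraries, weighed most in these sums. Without overlap 2 of the 10 were higher, as *hand2* was, and 5 lower, beside 18.2% and 17.1% of all genes. The higher were *nfatc1* and *fli1b* (log2 fold changes 0.50 and 0.37). The lower were *tek*, *klf2a*, *tie1*, *kdrl* and *fli1a* (−0.48, −0.34, −0.32, −0.29 and −0.25). Leukocyte markers summed to 2810 and 2979 against 4573 and 2649. Of the atrial list, *myh6*, the atrial myosin gene, held 4271 and 3139 in wild types and 2042 and 3034 in mutants, below both wild types as *nppa* was. The other tested gene of that list, *nr2f1a*, which encodes a nuclear receptor of atrial identity, went the other way, with 88 and 77 against 96 and 93. The part of atrial tissue in the *nppa* values was not tested.

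**Figure D4:**
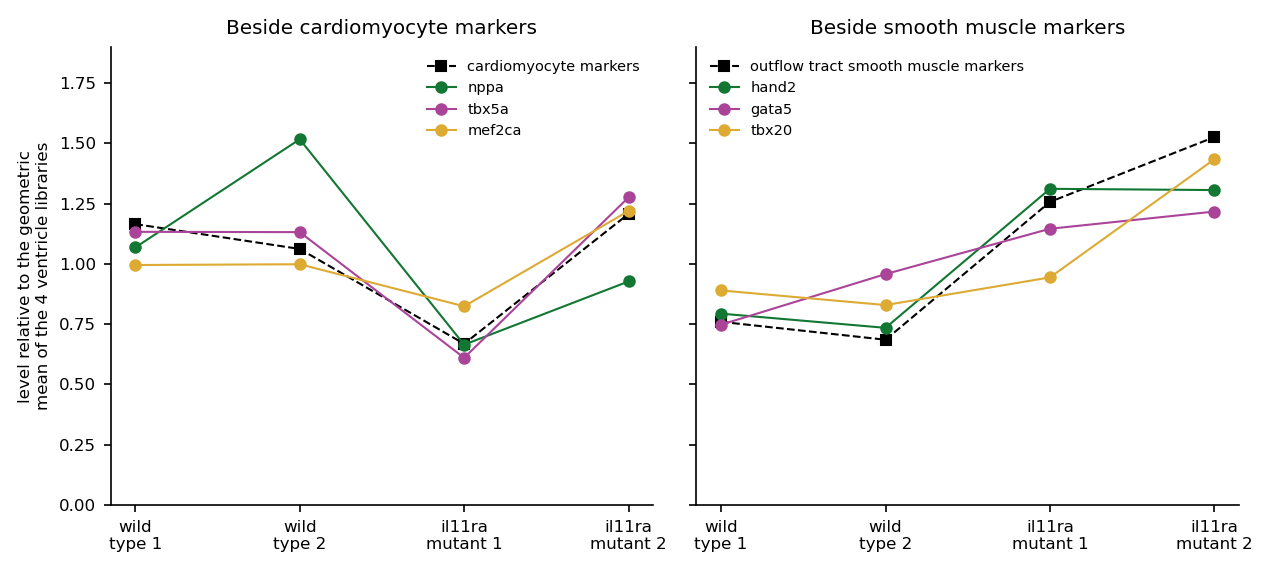
Level in each ventricle library relative to the geometric mean of the 4 libraries (vertical axis, from 0), with marker lists as dashed black lines and single genes in colour. On the left tbx5a lies with the cardiomyocyte markers, at 0.61 and 0.67 in the first mutant library, while nppa lies below both wild types in both mutants, and on the right hand2 stands at 1.31 in both mutants beside smooth muscle markers at 1.26 and 1.53.

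Other cardiac transcription factors gave no call in ventricles either. Of 50 listed symbols 43 were in the table and 35 were tested, and 0 passed the threshold. At an unadjusted p under 0.05 there were 4, all higher (beside 3.07% of all genes), among them *tbx2b* and *tbx18*. Without overlap 14 were higher and 5 lower, beside 18.2% and 17.1% of all genes, and the median log2 fold change was 0.21 beside 0.01 over all genes. *tbx2b*, a repressor that holds back chamber genes in the non-chamber heart muscle, held 91 and 87 normalized counts in wild types and 130 and 205 in mutants. *tbx3a*, a related repressor, held 12 and 2 against 17 and 21, which are too few counts to give its difference a narrow error (log2 fold change 1.67, standard error 0.79).

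No receptor or enzyme gene of the natriuretic peptide pathway passed the test in ventricles. Of 21 listed symbols 13 were in the table and 11 were tested, 0 passed, 1 was higher without overlap and 2 were lower (beside 18.2% and 17.1% of all genes), and the median log2 fold change was −0.11. The gene of C-type natriuretic peptide, *nppc*, held 11 and 12 normalized counts in wild types and 40 and 18 in mutants. *prkg1a*, which encodes a kinase activated by cyclic GMP, held 153 and 126 against 51 and 104. *corin*, the gene of the protease that cleaves the precursor of atrial natriuretic peptide, held 3136 and 2949 against 1727 and 3361, and so was lowest in the first mutant library like the cardiomyocyte list. The receptor gene *npr1a* held 38 and 88 against 59 and 61, and the gene of the clearance receptor, *npr3*, held 223 and 96 against 69 and 164. Neither separated the genotypes.

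Genes of cardiac stress and of the wound border zone, the setting in which natriuretic peptide transcripts are usually read, gave no call in ventricles. Of 18 symbols 17 were in the table and 15 were tested, 0 passed, 3 were higher and 2 lower without overlap (near the 18.2% and 17.1% of all genes), and the median log2 fold change was 0.02. *mustn1a*, a gene active in growing and injured muscle, held 22 and 32 normalized counts in wild types and 82 and 44 in mutants. *xirp2a*, the gene of an actin-binding protein of the intercalated disc, held 2096 and 2517 against 3381 and 3591. Both were higher in both mutants. The pair that was lower without overlap, as *nppa* and *nppb* were, was *hspb1* and *flnca*. *hspb1* held 12316 and 14022 against 7291 and 10642, and *flnca*, a filamin gene, held 16580 and 17750 against 10928 and 16572. The second mutant library of *flnca* was only just below the first wild type, and its log2 fold change was −0.35 with a standard error of 0.30. *desma*, the gene of the muscle intermediate filament desmin, held 18969 and 22706 against 13710 and 19712 and overlapped.

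In fins, 1 of the 10 genes could be tested. *mef2ca* held 284, 270 and 211 normalized counts in wild types and 284, 248 and 233 in mutants. The genotypes overlapped fully and both means were 255. The log2 fold change of *mef2ca* in fins was 0.01 with a standard error of 0.14 and a 95% interval from −0.31 to 0.32 (limma, Benjamini-Hochberg adjusted p = 0.972 over 16741 genes). So 0 of 1 passed at an adjusted p under 0.05, beside 36.6% of all genes tested in fins.

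The other 4 listed genes were at the edge of detection in fins. *nkx2.5* held 1, 0 and 2 normalized counts in wild types and 0, 1 and 3 in mutants, and *tbx5a* held 0, 3 and 0 against 0, 2 and 0. *hand2* held 0, 0 and 1 against 1, 1 and 4. *nppb* held 2, 2 and 4 against 0, 2 and 3. A count of 3 reads, the limit that a count of 0 allows, corresponds to 2.41 to 4.04 normalized counts in these libraries, so most of these values lie at or below it and no difference was detectable at this depth. These limits cover counting error only. Two-sided exact permutation tests gave p = 0.3 for *hand2*, 0.6 for *nppb* and 1 for *nkx2.5* and *tbx5a* (n = 3 per genotype), where the smallest possible p is 0.1. The other 5 genes (*gata4*, *gata5*, *gata6*, *tbx20* and *nppa*) have no row in the fin table and were not analysed there. The fin table holds no gene at 0 in every library (0), and the lowest sum of a listed gene over the 6 libraries was 2.

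The tables were normalized separately, so tissues are set side by side without a test, each library scaled to a sum of 1000000 over the 20684 genes in both tables. In these scaled counts *mef2ca* stood at 222 ± 8.80 in wild-type and 235 ± 44.4 in mutant ventricles (SD, n = 2 each), and at 66.8 ± 9.63 and 65.7 ± 5.39 in fins (SD, n = 3 each). *nppb* stood at 638 ± 145 and 435 ± 105 scaled counts in ventricles and at 0.701 ± 0.308 and 0.435 ± 0.398 in fins. *hand2* stood at 133 ± 2.28 and 239 ± 21.5 scaled counts in ventricles and at no more than 1.04 in any fin library. *mef2ca* alone of the 5 genes was well above 1 scaled count in both tissues. The fins held few heart muscle transcripts, with 9 of 18 cardiomyocyte symbols listed and sums of 45 to 188 normalized counts, while epidermal *krt5* held 1768 to 2704 and 11 to 52 in ventricles.

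**Figure D5:**
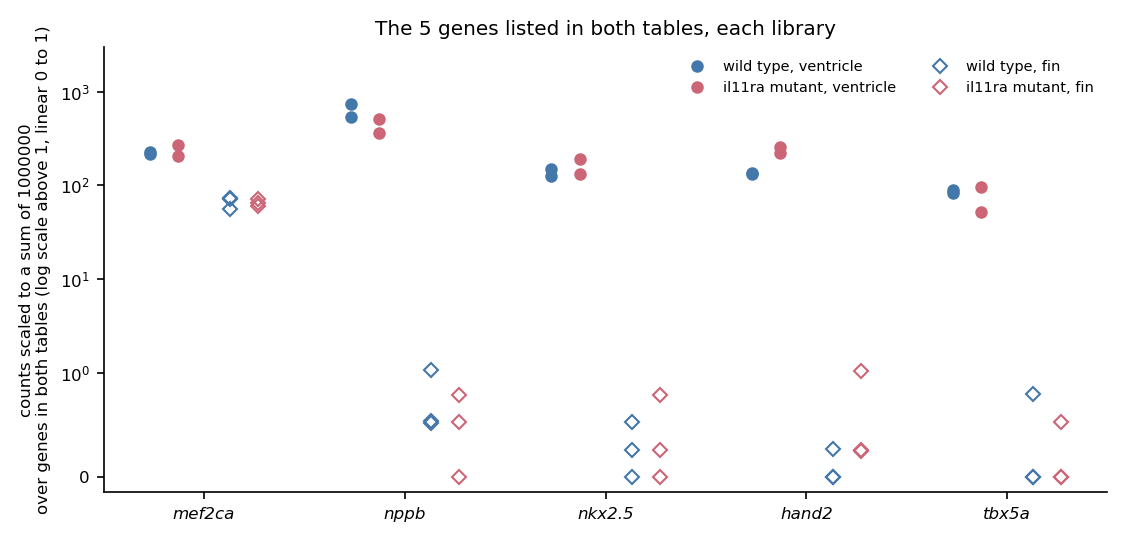
Counts scaled to a sum of 1000000 over the genes in both tables (vertical axis, log scale above 1 and linear from 0 to 1) for the 5 genes with a row in both tables, with each library as a point, ventricles filled, fins open, wild type blue and il11ra mutant red. mef2ca lies at about 222 in ventricles and 66.8 in fins of wild types, while the other 4 genes lie at or near 1 or below in every fin library.

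Related genes were called in fins where the 10 genes mostly could not be measured. Of the other cardiac transcription factors 35 were tested in fins, and 7 rose and 7 fell at an adjusted p under 0.05 (limma, Benjamini-Hochberg), a share of calls to be read beside 19.6% rising and 17% falling among all genes. The largest of these changes by size was that of *tead1a*, a partner of the growth regulator Yap, which held 58, 74 and 37 normalized counts in wild types and 8, 17 and 23 in mutants (log2 fold change −1.81, standard error 0.42). *gata2b* and *gata2a*, Gata factors of blood and vessels, rose by 1.65 and 1.44 on the log2 scale. *tead3b* fell by 1.36 and *srfa*, the partner of myocardin-related factors, by 1.13. Markers of other cell types moved with these genes in fins. All 4 tested leukocyte markers were called higher in mutants, with *mpx*, a neutrophil gene, at a log2 fold change of 2.19. Of 9 tested endothelial markers 4 were called higher, with *fli1b* at 1.13 and *tek* at 0.84, and 1 lower, *nfatc1* at −0.71. Called or not, 6 of these 9 markers had a positive log2 fold change and 3 a negative one. Their part in the fin values was not tested.

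Of the natriuretic peptide pathway 8 genes were tested in fins, and 2 rose and 2 fell, beside 19.6% rising and 17% falling among all genes. The clearance receptor gene *npr3* held 14, 22 and 24 normalized counts in wild types and 47, 48 and 60 in mutants, and *npr1a* held 170, 261 and 198 against 97, 106 and 140. No library of one genotype reached the other in either gene. *npr2*, the receptor gene for C-type natriuretic peptide, rose by 0.38 on the log2 scale and *furinb*, a protease gene, fell by 0.75. The ligand gene *nppc* held 144, 237 and 228 against 31, 147 and 121 and did not pass (limma, Benjamini-Hochberg adjusted p = 0.0945). Of the stress and border-zone list 6 were tested in fins, and 1 rose and 2 fell, beside the same shares of all genes. *hspb1* was higher by 1.51, and *hspb8* and *flncb* were lower, at log2 fold changes of −1.31 and −0.81. *hspb1* and *hspb8* are small heat shock protein genes and *flncb* is a filamin gene of muscle.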

How the data were processed

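Transcriptomes of 4 ventricle libraries (96 hpci) and 6 caudal fin libraries (24 hpa) were read from 1 deposited table per tissue, and groups were taken from the sample titles. Per the submitters' processing notes, FastQC, Trimmomatic 0.39, STAR 2.7.3a, featureCounts 1.6.5 (Subread) and DESeq2 1.26 were used with GRCz11, from TruSeq stranded mRNA libraries. The strand setting of the counting is not given in the sources used here. No other gene's span overlapped that of any of the 10 genes (0). The deposited signal is 1 value per gene and library, a read count that the authors divided by a size factor and rounded. The sums were 10968602 to 13273996 per ventricle library and 3768621 to 3986121 per fin library. The worth of 1 read, estimated from gaps among low values, was 0.836 to 1.03 and 0.802 to 1.35 normalized counts. Whole reads were not recovered, so no count model was used.

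Each normalized count was raised by 1 and its log2 taken. Genes with a mean of at least 10 were fitted per tissue with limma 3.58.1 in R 4.3.3 (empirical Bayes with a trend), mutant against wild type, with Benjamini-Hochberg adjustment over all tested genes and a threshold of 0.05. The fit was also run on simulated data, and its outcome there is not used here. Tables and figures were made with Python 3.11.15, pandas 2.3.3 and matplotlib 3.10.9, and the TMM and upper-quartile factors were computed from their definitions. The genes and lists were chosen with earlier results of these data known. From each list, the genes past the threshold were named (at most 6 by size), or else the 2 largest without overlap, and *corin*, *npr1a*, *npr3*, *desma*, *hspb1* and *flnca* in ventricles, *nppc* in fins, *tbx18*, and the marker genes given singly were added after their values were seen. Alternatives were pseudocounts of 0.1 and 10, no filter, a higher minimum (mean of 50), upper-quartile and TMM factors, robust moderation, scaling to cardiomyocyte markers, a replicate block and each library left out. The values of 1 gene that this rule names are not reported here. Gene lengths were not used here, so levels were not compared between genes.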

Additional observations from a re-analysis of the deposited data

Results flagged for a closer look

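The 10 genes and the listed transcription factor, natriuretic peptide pathway and stress genes included 46 tested in both tissues. Of these, 6 overlapped between genotypes in neither tissue and went opposite ways, beside 12.8% of all 14520 genes tested in both. The difference between tissues was not tested for any of them. None is one of the 10 genes, and all 6 missed the threshold in ventricles. The fin log2 fold change minus that of ventricles was 2.09 for *hspb1*, 1.36 for *tbx1* and 0.52 for *mef2d*, which were lower in mutant ventricles and higher in mutant fins. It was −1.64 for *srfa*, −1.17 for *irx3a* and −0.48 for *mef2cb*, a paralog of *mef2ca*, which were higher in mutant ventricles and lower in mutant fins. In fins *hspb1*, *srfa* and *tbx1* passed the threshold (limma, Benjamini-Hochberg adjusted p = 0.00178, 0.00377 and 0.00490) and the others did not.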

How the results depend on the processing

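Under every alternative 0 of the 10 genes passed the threshold in ventricles and 0 in fins, and the lowest adjusted p of any of them was 0.250, for *hand2*. At an unadjusted p under 0.05 there were 0 to 3 of the 10 in ventricles. Over all genes, 0 passed in ventricles, and 38 after scaling to cardiomyocyte markers. *hand2*, *gata5*, *tbx20*, *nppa*, *nppb* and *zgc:195023* kept their direction under all 14 alternatives. The changed filters, robust moderation and the replicate blocks leave a log2 fold change as it was, so these could not turn it. The log2 fold change of *mef2ca* in ventricles became −0.0083 with TMM and −0.0060 with upper-quartile factors, and in fins −0.0099 and −0.029. That of *gata4* became 0.29 when scaled to cardiomyocyte markers. With 1 library left out, the ranges in ventricles were −0.24 to 0.20 for *gata4*, −0.26 to 0.30 for *gata6*, −0.21 to 0.51 for *nkx2.5*, −0.89 to 0.17 for *tbx5a* and −0.27 to 0.29 for *mef2ca*, and in fins −0.12 to 0.090 for *mef2ca*. The cause was not tested. With 1 library left in a group, that library is assumed to vary like the others.

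The deviations of same-numbered libraries had correlations of −0.19 in ventricles and −0.08 to 0.09 in fins. With 2 ventricle libraries per genotype the deviations mirror each other, so this value cannot show whether the pools were paired. No pairing was assumed, and a shared origin of libraries was not tested. With the replicate number as a block 0 of the 10 genes passed in ventricles and 0 in fins. With the numbers crossed, an alternative chosen after seeing the data, 0 of the 10 passed.

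With 2 pools per genotype, the ventricle intervals are wide, and low counts in fins limit 4 of the genes to a description.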

Other observations

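The pair of genes with the widest range over the 4 ventricle libraries was *nppa* (1.19 on the log2 scale) and *tbx5a* (1.06), and the genes nearest to them in pattern were sought among all 17411 tested genes. The measure was the root-mean-square difference of log2 values, centred over the 4 libraries, and with 4 points many genes come close by this measure. Nearest to *nppa* were *luzp2* (0.048), *lrrc17* (0.057) and *si:ch73-334d15.1* (0.057). *lrrc17* held 408 and 567 normalized counts in wild types and 261 and 327 in mutants. Nearest to *tbx5a* were *flot1a* (0.012), *si:dkey-178e17.3* (0.021) and *klhl24a* (0.026). *klhl24a* held 599 and 582 against 311 and 642, so its first mutant library was low and its second slightly above the wild types, as in *tbx5a*.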
